A study of Drosophila melanogaster with 36 samples.

Results

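The comparison described here sets S3 cells treated with the active derivative of chemotype 1 (active CT1, compound THI-4) directly against S3 cells treated with the active derivative of chemotype 2 (active CT2, compound TPE-69). It rests on the 3 libraries of each group, chosen by their titles, 6 of the 36 libraries of the series. S3 is an established cell line from Drosophila melanogaster embryos. The cells of both groups were given 1 µM of compound, 200 µM oleic acid (OA) and 0.1% DMSO for 4 h in serum-reduced medium, so the compounds were compared at 1 matched dose and 1 matched time, as 1 pair. The study asked whether its lipid storage inhibitors act on gene expression alike. CT1 is built on a tetrahydroindazole core and CT2 on a thienopyrrole core. Further groups used for reference were the inactive derivatives of the same chemotypes (inactive CT1, THI-68, and inactive CT2, TPE-67), with 3 libraries each and the same dose, OA, DMSO and time, and control cells with OA and DMSO but no compound (vehicle OA), of which 2 libraries were used. OA was thus present in all of these groups, and every value below describes a single cell line. The labels name cultures by replicate number without saying that they were independent experiments, so the p-values measure the spread between libraries, which may be technical. That spread was estimated over 22 libraries with DMSO. Besides the groups named here, they include both derivatives of chemotype 3, with OA, and vehicle cells without OA.

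Cells supplied with more fatty acid than they burn esterify it to triacylglycerol and store it in lipid droplets, whose surface is covered by perilipins that control the access of lipases. Fatty acids taken up or released from droplets are activated to acyl-CoA, enter mitochondria through the carnitine shuttle or enter peroxisomes, and are shortened there by beta-oxidation. The same acyl-CoA pool feeds phospholipid synthesis, and the transcription factor SREBP drives the genes of fatty acid synthesis, in flies under the control of phospholipids.

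The libraries held between 4244841 and 7366000 counts in active CT1 cells and between 5167327 and 5522487 counts in active CT2 cells, of which the 18S rRNA gene took between 36.0% and 42.5% in active CT1 cells and between 41.6% and 51.1% in active CT2 cells. Over the 7522 genes tested, Spearman's rho between libraries was 0.994 to 0.996 within active CT1, 0.993 to 0.994 within active CT2 and 0.989 to 0.991 between them. Hemocyte markers, which embryonic fly lines often express, summed to 4012 to 4649 CPM (counts scaled by library size) in active CT1 cells, 4393 to 4666 CPM in active CT2 cells and 4285 to 4411 CPM in vehicle OA cells. Neuron and glia markers summed to 34.4 to 39.5 CPM in active CT1 cells and 37.4 to 43.3 CPM in active CT2 cells, with the glial gene repo at 0. Muscle markers summed to 200.6 to 230.4 CPM in active CT1 cells and 198.6 to 209.3 CPM in active CT2 cells, with up at 0. Nearly all of this sum was Mlc2, with means of 213.8 CPM in active CT1 and 204.0 CPM in active CT2 cells. Of the 4 muscle markers Mlc2 alone passed the filter on low counts, so the sum does not show the set as expressed. Germ line markers stayed at or under 1.10 CPM in all 6 libraries. Of the 5 hemocyte markers that passed the filter on low counts, 0 were called between the compounds by edgeR, DESeq2 or limma. An unadjusted p under 0.05 was found for 0 of them. Over all genes edgeR called 9.89%, so 0 calls among 5 genes do not set these markers apart.

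The direct comparison called 744 of the 7522 genes, 9.89% of them, as differing between the compounds (edgeR's quasi-likelihood test, Benjamini-Hochberg adjusted p under 0.05). Of these genes 412 (5.48% of all tested) were higher and 332 (4.41%) were lower in active CT1 cells than in active CT2 cells. In bulk RNA fewer cells that express a gene and less of its RNA per cell cannot be told apart. A log2 fold change under 0.25 was found for 107 of the called genes, one from 0.25 to 0.5 for 400, one from 0.5 to 1 for 185, and one of at least 1, a doubling or more, for 52, of which 23 were higher and 29 lower in active CT1 cells. The values ran from -1.80 to 2.85, with a median of 0.39 among genes called higher, -0.39 among genes called lower and -0.0004 over all genes tested. The 3 libraries of active CT1 did not overlap with the 3 of active CT2 for 1902 of all genes tested, 25.3%. Among the 744 called genes 727 did not overlap, which follows largely from the call, since it rests on the same libraries. Of the 6778 genes that were not called, 4757 (70.2%) had a 95% interval of the log2 fold change within 0.5 either way. The size of the count depended on the tool. DESeq2 called 469 genes and limma on the FPKM values 152, and the share of calls that were higher in active CT1 cells was 55.4% with edgeR, 63.1% with DESeq2 and 84.2% with limma, where the median of all genes was shifted by 0.07.

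**Figure D1:**
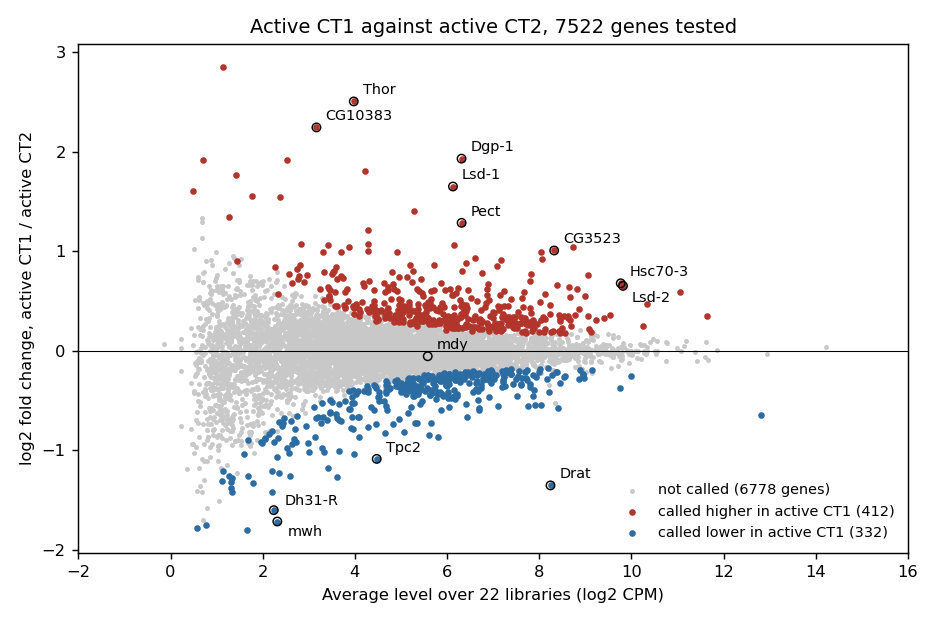
Log2 fold change of active CT1 over active CT2 (y axis) against the average level over 22 libraries (x axis, log2 CPM) for the 7522 genes tested, with one point per gene. The 412 genes called higher in active CT1 cells are red and the 332 called lower are blue; Thor at 2.50 and Drat at -1.35 lie far from 0, and mdy at -0.06 lies among the uncalled genes.

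Against vehicle OA cells more genes were called for active CT1 than for active CT2. Both comparisons with vehicle use the same 2 vehicle libraries, so their values are given side by side and no overlap of them is a result. In active CT1 cells 563 genes (7.48%) were called higher and 349 (4.64%) lower than in vehicle OA cells, and in active CT2 cells 148 (1.97%) were called higher and 5 (0.0665%) lower. Without vehicle OA replicate 2 the calls dropped to 489 for active CT1 and to 74 for active CT2. Genes called in the direct comparison were chosen on the same active libraries, so the signs of their values against vehicle follow in part from that choice. The 412 genes higher in active CT1 than in active CT2 cells had a median log2 fold change against vehicle of 0.57 in active CT1 cells, with 333 called higher and 0 lower, and of 0.15 in active CT2 cells, with 100 called higher and 1 lower. The 332 genes lower in active CT1 cells had a median of -0.38 against vehicle in active CT1 cells, with 0 called higher and 205 lower, and of 0.01 in active CT2 cells, with 2 called higher and 1 lower. The 2 genes called higher in active CT2 cells, named after their values were seen, were lncRNA:Hsromega, the heat shock noncoding RNA, and CG9674, an enzyme of glutamate synthesis. The RNA of lncRNA:Hsromega stood at 192, 167 and 175 CPM in active CT1 cells, 288, 271 and 229 CPM in active CT2 cells and 177 and 165 CPM in vehicle OA cells. For lncRNA:Hsromega the log2 fold change was -0.56 (SE 0.0925). CG9674 stood at 251, 266 and 324 CPM in active CT1 cells, 397, 406 and 447 CPM in active CT2 cells and 312 and 318 CPM in vehicle OA cells. CG9674 had a log2 fold change of -0.58 (SE 0.0831). Both genes were picked by calls that place active CT2 cells above the other 2 groups, so that order was set by the choice. The active CT2 libraries did not overlap with those of the other 2 groups, which follows in part from that choice. For lncRNA:Hsromega the inactive CT2 libraries had 228, 221 and 188 CPM and the inactive CT1 libraries 194, 193 and 225 CPM. Active CT2 against inactive CT2 was not called for lncRNA:Hsromega (log2 fold change 0.32, adjusted p = 0.0573). It was called for CG9674 (log2 fold change 0.31, adjusted p = 0.0355).

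Called genes were ranked where the average log2 CPM was 2 or more and the groups did not overlap, and Thor had the largest rise in active CT1 over active CT2 cells. Thor is the fly 4E-BP that holds back cap-dependent translation and is a known target of the transcription factor FOXO. Its level was 52.6, 35.6 and 43.9 CPM in active CT1 cells, 7.64, 7.0 and 8.44 CPM in active CT2 cells and 9.09 and 7.21 CPM in vehicle OA cells. Active CT2 and vehicle OA libraries overlapped, and Thor was 5.68-fold higher in active CT1 cells (log2 fold change 2.50, SE 0.152, adjusted p = 6.82e-16). CG10383 had 17.8, 16 and 18.4 CPM in active CT1 cells, 4.11, 3.3 and 3.48 CPM in active CT2 cells and 6.34 and 4.01 CPM in vehicle OA cells, a 4.74-fold difference between the compounds (SE 0.188 on the log2 scale). Dgp-1, a predicted GTP-binding protein, had 237, 174 and 233 CPM in active CT1 cells, 59.9, 56.7 and 51.9 CPM in active CT2 cells and 42.2 and 48.5 CPM in vehicle OA cells. Dgp-1 had a log2 fold change of 1.93 (SE 0.0893). The long noncoding RNA lncRNA:CR44138 had 56.2, 37.2 and 40.8 CPM in active CT1 cells, 14.3, 14.8 and 9.72 CPM in active CT2 cells and 11 and 11.8 CPM in vehicle OA cells. For lncRNA:CR44138 the log2 fold change was 1.8 (SE 0.151). All 4 genes were called higher in active CT1 cells than in vehicle OA cells and were not called in active CT2 cells against vehicle. For Dgp-1 every active CT2 library still lay above both vehicle libraries.

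Of the others among the 10 largest rises, Ldh, lactate dehydrogenase, had 40.8, 33.6 and 45 CPM in active CT1 cells, 18.2, 17.5 and 15.2 CPM in active CT2 cells and 13 and 12.8 CPM in vehicle OA cells, and Cyp6a8, a cytochrome P450, had 94.4, 72.1 and 64 CPM in active CT1 cells, 34.9, 28.4 and 24.9 CPM in active CT2 cells and 18.2 and 21.8 CPM in vehicle OA cells. The active CT2 value of Cyp6a8 lay above both vehicle libraries, although the gene was not called there (log2 fold change against vehicle 0.53, adjusted p = 0.148). GstE9, a glutathione S-transferase, was low in every library, with 8.49, 8.15 and 9.21 CPM in active CT1 cells, against 2.94, 3.09 and 2.75 CPM in active CT2 cells. GstE9 had a log2 fold change of 1.54 (SE 0.248, adjusted p = 1.36e-05). GstE9 and Cyp6a8 belong to families with close copies in the genome, and since the alignment kept 1 place per read, some of their reads may belong to a relative. SLC22A, Lsd-1 and Pect complete the 10 and are described with their groups below.

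Of the 10 largest falls in active CT1 cells by the same rule, Drat had the highest level. It encodes a protein with an alcohol dehydrogenase domain and had 137, 124 and 125 CPM in active CT1 cells, 360.0, 323 and 304 CPM in active CT2 cells and 316 and 303 CPM in vehicle OA cells. Its RNA was 2.56-fold lower in active CT1 than in active CT2 cells (log2 fold change -1.35, SE 0.0732, adjusted p = 1.58e-17). The active CT2 libraries overlapped with vehicle. The planar polarity gene mwh had 2.12, 1.18 and 1.26 CPM in active CT1 cells, 4.11, 5.97 and 5.32 CPM in active CT2 cells and 6.06 and 6.01 CPM in vehicle OA cells. For mwh the log2 fold change was -1.72 (SE 0.301). Dh31-R, the receptor of the peptide hormone DH31, had 1.84, 1.31 and 1.46 CPM in active CT1 cells, against 4.51, 4.94 and 4.77 CPM in active CT2 cells. Dh31-R had a log2 fold change of -1.60 (SE 0.28). Dgk, a diacylglycerol kinase, had 1.84, 2.1 and 2.51 CPM in active CT1 cells, against 4.7, 4.53 and 5.5 CPM in active CT2 cells, and CG11241 had 1.7, 1.97 and 2.72 CPM in active CT1 cells, against 5.09, 4.74 and 6.79 CPM in active CT2 cells. All 10 genes were called lower in active CT1 cells than in vehicle OA cells and not called in active CT2 cells. The antisense transcript asRNA:CR45171 (log2 fold change -1.23, SE 0.27) was counted by strand.

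For 4 of these genes the libraries of inactive CT2 were also low. Tpc2, a mitochondrial thiamine pyrophosphate carrier, had 13.4, 11.4 and 12.6 CPM in active CT1 cells, 29.2, 25.8 and 24.6 CPM in active CT2 cells and 30.0 and 25.2 CPM in vehicle OA cells. Tpc2 had a log2 fold change of -1.09 (SE 0.115) between the compounds and stood at 12.5, 14.8 and 12.4 CPM in inactive CT2 cells. Cc2d2a, known in mammals from the base of cilia, had 5.24, 6.57 and 6.9 CPM in active CT1 cells, against 15.9, 17.1 and 11.9 CPM in active CT2 cells, and 7.12, 11.7 and 5.8 CPM in inactive CT2 cells. CG8908 had 4.95, 6.57 and 4.81 CPM in active CT1 cells, against 12.1, 11.3 and 14.1 CPM in active CT2 cells, and 4.07, 6.6 and 6.88 CPM in inactive CT2 cells. CG12071 had 2.97, 3.81 and 2.51 CPM in active CT1 cells, against 8.03, 7.42 and 7.52 CPM in active CT2 cells, and 2.71, 3.5 and 3.51 CPM in inactive CT2 cells. In all 4 genes every inactive CT2 library lay below every active CT2 library. Active CT1 was not tested against inactive CT2.

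Genes were grouped in 23 lists by function, of which 9 concern the storage, oxidation and synthesis of lipids. In the 9 lipid lists, 103 of 106 entries were found in the data and 93 genes passed the filter on low counts. Of these 93 genes 55 were called higher in active CT1 than in active CT2 cells and 0 were called lower, beside 5.48% and 4.41% of all genes tested, and the median log2 fold change was 0.31, beside -0.0004 over all genes. DESeq2 called 50 of them and limma 28, beside 469 and 152 of all genes tested. By sign, 82 of the 93 were higher in active CT1 cells and 11 lower. Against vehicle OA cells, 64 were called higher in active CT1 cells (median 0.68) and 37 in active CT2 cells (median 0.35), and 0 were called lower in either. Over all genes, 7.48% and 1.97% were called higher than vehicle. Against their own inactive derivatives, 66 were called higher in active CT1 cells (median 0.65) and 25 in active CT2 cells (median 0.19), beside 8.42% and 2.03% of all genes. The median level of the 93 genes relative to vehicle, on the log2 scale, was 0.67, 0.63 and 0.66 in the active CT1 libraries and 0.44, 0.29 and 0.30 in the active CT2 libraries. The groups did not overlap, and active CT2 replicate 1 lay closest to active CT1.

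**Figure D2:**
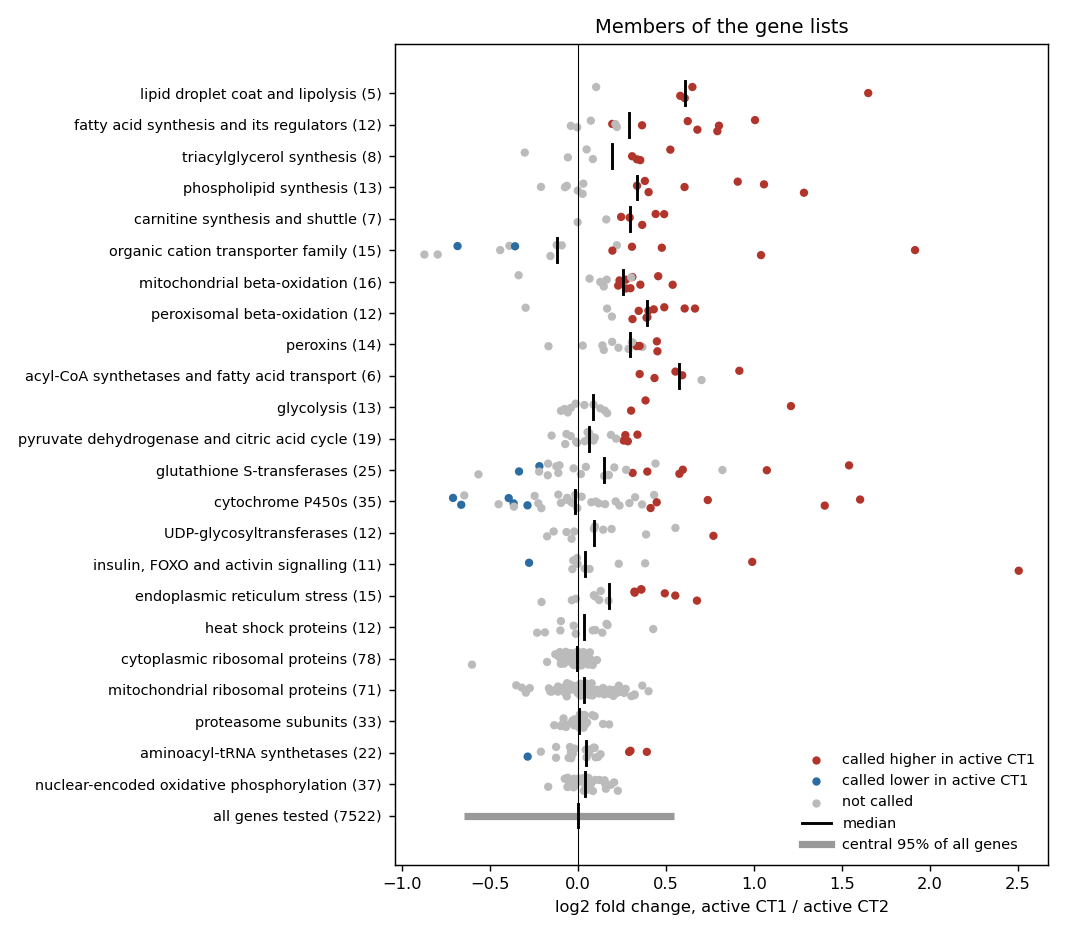
Log2 fold change of active CT1 over active CT2 (x axis) for the tested members of 23 gene lists (y axis, number of members in parentheses), with one point per gene, a black line at each list's median, and a grey bar for the central 95% of all genes. The medians of the 9 lipid lists lie between 0.20 and 0.61, that of the organic cation transporters at -0.12, and the ribosomal, proteasome and oxidative phosphorylation lists have no called member.

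The lipid droplet list gave the largest median, 0.61. Of its 5 tested members 4 were called higher and 0 lower, beside 5.48% and 4.41% of all genes. Lsd-1, the perilipin that recruits lipases to the droplet, had 201, 180.4 and 192 CPM in active CT1 cells, 72.1, 57.1 and 53.7 CPM in active CT2 cells and 28.9 and 20.4 CPM in vehicle OA cells. Both compounds lay above vehicle without overlap, and active CT1 cells had 3.14 times the level of active CT2 cells (log2 fold change 1.65, SE 0.0848, adjusted p = 3.99e-18). Lsd-2, the perilipin that shields stored fat, had 1577, 1479.7 and 1666 CPM in active CT1 cells, 1044, 965 and 998 CPM in active CT2 cells and 614 and 644 CPM in vehicle OA cells. Lsd-2 had a log2 fold change of 0.65 (SE 0.0587, adjusted p = 4.49e-11). The order active CT1, active CT2, vehicle held in every library for both perilipins. bmm, the fly homolog of adipose triglyceride lipase, had 30.9, 27.9 and 28 CPM in active CT1 cells, 18.4, 18.3 and 20.2 CPM in active CT2 cells and 17.4 and 16.2 CPM in vehicle OA cells. For bmm the log2 fold change was 0.61 (SE 0.105, adjusted p = 4.54e-05). For bmm the active CT2 libraries lay just above vehicle, where the gene was not called (log2 fold change against vehicle 0.18, adjusted p = 0.812). puml, related to the lipase cofactor ABHD5 of mammals, had 125, 109.7 and 114 CPM in active CT1 cells, against 93.4, 66.3 and 73 CPM in active CT2 cells. For puml the log2 fold change was 0.58 (SE 0.0841). The remaining lipase, Hsl, had 87.6, 88.6 and 96.9 CPM in active CT1 cells, against 88.3, 81.8 and 82.7 CPM in active CT2 cells, and the groups overlapped (log2 fold change 0.10, 95% interval -0.04 to 0.24, adjusted p = 0.436).

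**Figure D3:**
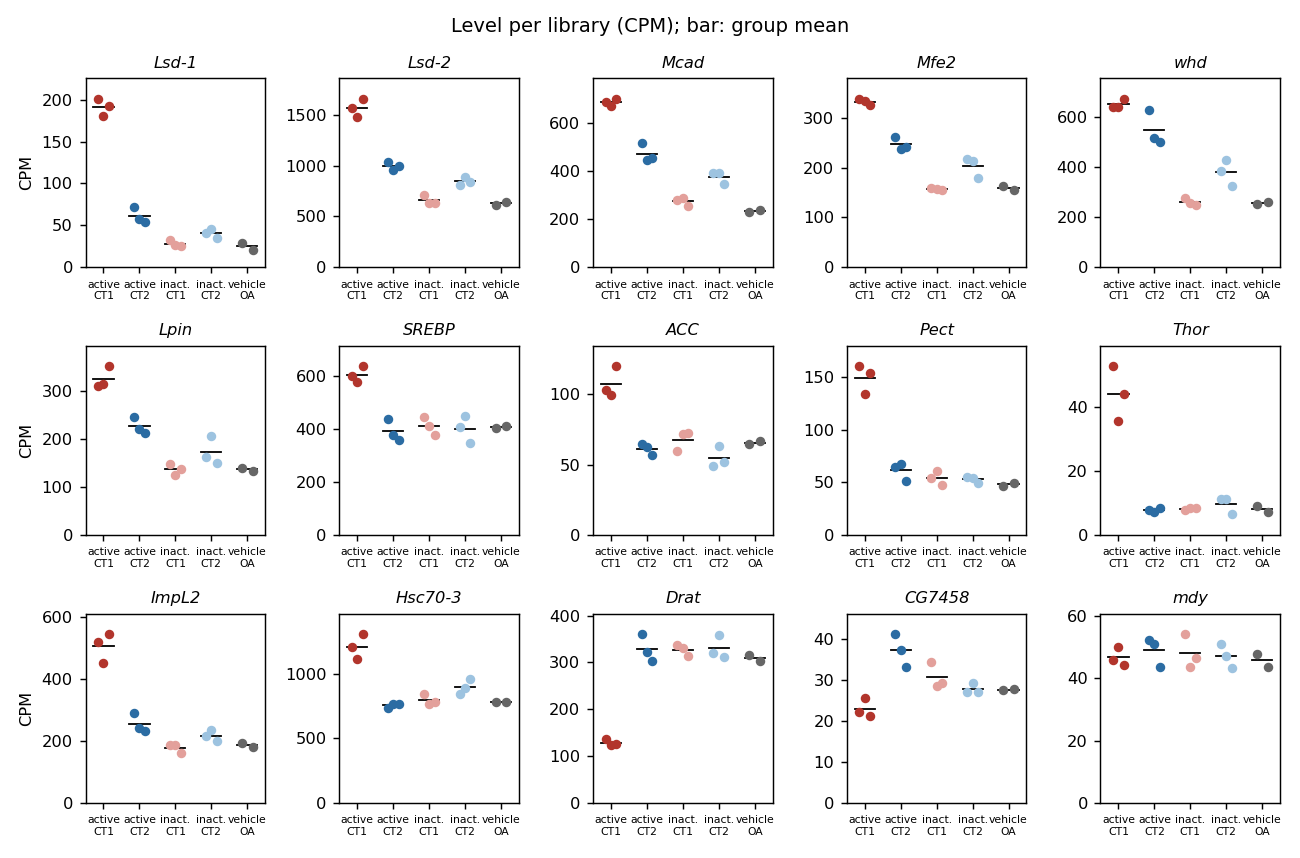
Level in CPM (y axis) of 15 genes in each library of active CT1, active CT2, inactive CT1, inactive CT2 and vehicle OA cells (x axis), with one point per library and a bar at the group mean. Lsd-1, Lsd-2, Mcad and Mfe2 step down from active CT1 over active CT2 to vehicle, SREBP, ACC, Thor and Hsc70-3 have their highest libraries in active CT1 cells and Drat its lowest, and the groups overlap for mdy.

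Most genes of mitochondrial beta-oxidation were called higher than vehicle with both compounds. Of 16 tested members, 10 were called higher and 0 lower in active CT1 than in active CT2 cells (median 0.26). The shares over all genes were 5.48% and 4.41%. Against vehicle, 12 were called higher in active CT1 cells (median 0.70) and 10 in active CT2 cells (median 0.48). There the shares over all genes were 7.48% and 1.97%. Mcad, medium-chain acyl-CoA dehydrogenase, had 688, 669.9 and 701 CPM in active CT1 cells, 516, 446 and 455 CPM in active CT2 cells and 229.8 and 239 CPM in vehicle OA cells. Mcad had a log2 fold change of 0.54 (SE 0.0638, adjusted p = 3.83e-08). yip2, a thiolase of the last step, had 507, 485 and 494 CPM in active CT1 cells, 393, 356 and 334 CPM in active CT2 cells and 193 and 195 CPM in vehicle OA cells. For yip2 the log2 fold change was 0.46 (SE 0.0681, adjusted p = 3.67e-06). In both genes the active CT2 libraries lay between the other groups without overlap. Mtpalpha, a subunit of the trifunctional protein that acts on long chains, had 855, 828 and 932 CPM in active CT1 cells, against 715, 684 and 709 CPM in active CT2 cells. Mtpalpha had a log2 fold change of 0.31 (SE 0.0559, adjusted p = 8.56e-05). Etf-QO, which passes the electrons of acyl-CoA dehydrogenases to ubiquinone, had 152, 151 and 157 CPM in active CT1 cells, against 129, 126 and 118 CPM in active CT2 cells. Etf-QO had a log2 fold change of 0.30 (SE 0.0568). Arc42, an acyl-CoA dehydrogenase, was called higher than vehicle in both groups (log2 fold changes 0.65 and 0.49 in active CT1 and active CT2 cells) but not between them (log2 fold change 0.16, 95% interval 0.04 to 0.29, adjusted p = 0.098). CG3902 and Dci had intervals of -0.06 to 0.19 and -0.20 to 0.45 between the compounds. Limma called 3 members, and without active CT2 replicate 3 the number of called members dropped to 6.

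The carnitine shuttle was high against vehicle with both compounds. Against the inactive derivative of the same chemotype, the median of the list was 1.22 for active CT1 and 0.50 for active CT2. Of 7 tested members, 5 were called higher and 0 lower in active CT1 than in active CT2 cells, with a median of 0.29. The shares over all genes were 5.48% and 4.41%. Limma called 1 of the 7, beside 152 of the 7522 genes. The medians against vehicle were 1.34 in active CT1 cells and 1.00 in active CT2 cells. whd, carnitine palmitoyltransferase 1 and the gate of the shuttle, had 638, 638 and 672 CPM in active CT1 cells, 625, 516 and 501 CPM in active CT2 cells and 252 and 261 CPM in vehicle OA cells. The lowest active CT1 library lay just above the highest active CT2 library, and the difference was 0.25 (SE 0.0723, adjusted p = 0.0208), a call lost without active CT1 replicate 3 (adjusted p = 0.0771), without active CT2 replicate 2 (adjusted p = 0.114) and without active CT2 replicate 3 (adjusted p = 0.181). CPT2, the inner membrane partner of whd, had 88.3, 88.3 and 84.3 CPM in active CT1 cells, against 73.1, 60.2 and 59.2 CPM in active CT2 cells. CPT2 had a log2 fold change of 0.44 (SE 0.0764, adjusted p = 4.54e-05). CROT, which forms carnitine esters in peroxisomes, had 77.7, 82.9 and 84.7 CPM in active CT1 cells, against 66.2, 47.4 and 60.2 CPM in active CT2 cells. CROT had a log2 fold change of 0.49 (SE 0.0935, adjusted p = 0.000192). Both of these were also called higher than vehicle in each group. The carrier colt (log2 fold change 0.29, SE 0.0741, adjusted p = 0.00554) lost its call without active CT1 replicate 3 (adjusted p = 0.0631) and without active CT2 replicate 3 (adjusted p = 0.0638). CG5321, related to the last enzyme of carnitine synthesis (log2 fold change 0.37, SE 0.0943, adjusted p = 0.00707), lost its call without active CT1 replicate 1 (adjusted p = 0.0725) and without active CT2 replicate 3 (adjusted p = 0.091). CRAT, carnitine acetyltransferase, overlapped between the groups (log2 fold change -0.00073, 95% interval -0.24 to 0.24, adjusted p = 1), and Tmlh, the first enzyme of carnitine synthesis, was too low for a narrow interval (95% interval -0.45 to 0.77). The list held 3 calls without active CT1 replicate 3 and 2 without active CT2 replicate 3.

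Peroxisomal beta-oxidation shortens chains that mitochondria handle poorly. Of 12 tested members, 9 were called higher and 0 lower in active CT1 than in active CT2 cells (median 0.39). The shares over all genes were 5.48% and 4.41%. The medians against vehicle were 1.03 in active CT1 cells and 0.66 in active CT2 cells. Mfe2, the enzyme of the middle steps, had 339, 334 and 326 CPM in active CT1 cells, 263, 237 and 241 CPM in active CT2 cells and 163 and 155 CPM in vehicle OA cells. Mfe2 had a log2 fold change of 0.43 (SE 0.0637, adjusted p = 3.16e-06). The membrane transporter Abcd3 had 187, 184 and 194 CPM in active CT1 cells, against 161, 137 and 133 CPM in active CT2 cells. Abcd3 had a log2 fold change of 0.39 (SE 0.06). Both genes were called higher than vehicle in both groups. CG17597, related to sterol carrier protein X of mammals, had 84.5, 87.5 and 86.8 CPM in active CT1 cells, against 56, 59.3 and 54.7 CPM in active CT2 cells. CG17597 had a log2 fold change of 0.61 (SE 0.0669, adjusted p = 6.81e-09). CG4586 (log2 fold change 0.19, 95% interval 4.6e-05 to 0.39) and CG17544 (log2 fold change -0.30, 95% interval -0.96 to 0.37) were not called. Limma called 5 of the 12.

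The peroxins, which build peroxisomes and import their proteins, had a median of 0.30 over 14 tested members. Of these 4 were called higher and 0 lower, beside 5.48% and 4.41% of all genes. Limma called 1 of the 14, beside 152 of the 7522 genes. Pex14, of the docking complex for imported enzymes, had 124, 113 and 114 CPM in active CT1 cells, 86.8, 85.7 and 84.7 CPM in active CT2 cells and 55.7 and 53.3 CPM in vehicle OA cells. Pex14 had a log2 fold change of 0.45 (SE 0.0725, adjusted p = 1.45e-05). Its partner Pex13 (log2 fold change 0.33, SE 0.0855, adjusted p = 0.00673) lost its call without active CT2 replicate 2 (adjusted p = 0.0742) and without active CT2 replicate 3 (adjusted p = 0.052). DESeq2 called neither Pex6 nor Pex10. Pex6 (log2 fold change 0.35, SE 0.105, adjusted p = 0.0244) lost its call without active CT1 replicate 1 (adjusted p = 0.129), without active CT2 replicate 2 (adjusted p = 0.106) and without active CT2 replicate 3 (adjusted p = 0.206). Pex10 (log2 fold change 0.45, SE 0.143, adjusted p = 0.0341) lost its call without active CT1 replicate 2 (adjusted p = 0.178), without active CT1 replicate 3 (adjusted p = 0.0715), without active CT2 replicate 1 (adjusted p = 0.0521), without active CT2 replicate 2 (adjusted p = 0.0607) and without active CT2 replicate 3 (adjusted p = 0.183). The list held 1 call without active CT2 replicate 2 and 2 calls without active CT2 replicate 3. Pex19, a chaperone of peroxisomal membrane proteins, was called higher than vehicle in both groups and not between them (log2 fold change 0.14, 95% interval -0.0019 to 0.28, adjusted p = 0.253), and Pex3 (log2 fold change 0.20, 95% interval 0.00075 to 0.39) and Pex16 (log2 fold change 0.31, 95% interval 0.07 to 0.55) were not called between the compounds.

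Of 6 tested genes that activate and carry fatty acids, 5 were called higher in active CT1 than in active CT2 cells and 0 lower. Their median was 0.57, and the shares over all genes were 5.48% and 4.41%. Acsl, a long-chain acyl-CoA synthetase, had 497, 480.1 and 523 CPM in active CT1 cells, 296, 265 and 233 CPM in active CT2 cells and 174 and 171 CPM in vehicle OA cells. Acsl had a log2 fold change of 0.92 (SE 0.0826, adjusted p = 4.49e-11). pdgy, another acyl-CoA synthetase, had 346, 344 and 353 CPM in active CT1 cells, 286, 247 and 239 CPM in active CT2 cells and 115 and 118 CPM in vehicle OA cells. For pdgy the log2 fold change was 0.44 (SE 0.066, adjusted p = 4.81e-06). CG6178, of the same enzyme class, had 233, 230.0 and 229.9 CPM in active CT1 cells, against 173, 154 and 145 CPM in active CT2 cells. CG6178 had a log2 fold change of 0.55 (SE 0.0669). For Acsl and pdgy the 3 groups were separate in every library. The fatty acid binding protein fabp had 304, 289 and 320.1 CPM in active CT1 cells, 223, 191 and 190.0 CPM in active CT2 cells and 163 and 167 CPM in vehicle OA cells. For fabp the log2 fold change was 0.59 (SE 0.0703, adjusted p = 3.83e-08). The gene was called higher than vehicle in active CT1 cells but not in active CT2 cells (log2 fold change against vehicle 0.29, adjusted p = 0.063). Acsf2 was low in all libraries (95% interval 0.02 to 1.38) and not called.

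Several genes of fatty acid synthesis were called higher in active CT1 cells than in active CT2 cells and than in vehicle OA cells. Of 12 tested members 7 were called higher and 0 lower in active CT1 than in active CT2 cells (median 0.29). The shares over all genes were 5.48% and 4.41%. In active CT1 cells 7 were called higher than vehicle (median 0.41), and in active CT2 cells 0 were called (median 0.03), where 2 had an unadjusted p under 0.05. Over all genes, 7.48% were called higher than vehicle in active CT1 cells and 1.97% in active CT2 cells. With so low a share in active CT2 cells, 0 calls among 12 genes do not set this list apart. CG3523, the fatty acid synthase, had 438, 436 and 664 CPM in active CT1 cells, 256, 262 and 243 CPM in active CT2 cells and 211 and 195 CPM in vehicle OA cells. CG3523 had a log2 fold change of 1.01 (SE 0.104, adjusted p = 1.36e-09). Active CT1 replicate 3 was well above the other libraries of its group, and the remaining ones still lay above all active CT2 libraries. ACC, which makes malonyl-CoA and so commits acetyl-CoA to synthesis, had 103, 99.9 and 119.9 CPM in active CT1 cells, 64.6, 62.8 and 56.7 CPM in active CT2 cells and 64.8 and 66.5 CPM in vehicle OA cells. ACC had a log2 fold change of 0.80 (SE 0.079, adjusted p = 4.74e-10). SREBP, the transcription factor of these genes, had 599, 578 and 637 CPM in active CT1 cells, 438, 377 and 361 CPM in active CT2 cells and 405 and 412 CPM in vehicle OA cells. SREBP had a log2 fold change of 0.62 (SE 0.0762, adjusted p = 6.67e-08). Active CT2 libraries lay on both sides of the vehicle libraries for SREBP, below them for ACC and above them for CG3523. Zw, which supplies NADPH, had 29.2, 26.9 and 27.8 CPM in active CT1 cells, 20.4, 15 and 16.9 CPM in active CT2 cells and 11.8 and 11.8 CPM in vehicle OA cells (log2 fold change 0.68, SE 0.108, adjusted p = 1.19e-05), with active CT2 cells between the other groups.

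Desat1, the main fatty acid desaturase, had 522, 509 and 517 CPM in active CT1 cells, against 514, 525 and 514 CPM in active CT2 cells (95% interval of the log2 fold change -0.11 to 0.10), and the groups overlapped. The SREBP escort SCAP (log2 fold change 0.21, 95% interval 0.06 to 0.37, adjusted p = 0.0712) and the protease S2P (log2 fold change 0.07, 95% interval -0.10 to 0.25) were not called between the compounds. The count of called members fell to 4 without active CT2 replicate 3, and limma also called 4.

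Triacylglycerol synthesis gave 4 higher and 0 lower calls among 8 tested members (median 0.20), beside 5.48% and 4.41% of all genes. Limma called 1 of the 8, beside 152 of the 7522 genes. Lpin, the phosphatidate phosphatase that makes diacylglycerol, had 311, 315 and 351 CPM in active CT1 cells, 245, 221 and 212 CPM in active CT2 cells and 140.3 and 134 CPM in vehicle OA cells. Lpin had a log2 fold change of 0.53 (SE 0.0732, adjusted p = 1.04e-06). Gpat4 had 93.7, 95.7 and 92.9 CPM in active CT1 cells, 80.1, 72.5 and 68.4 CPM in active CT2 cells and 60.1 and 57.5 CPM in vehicle OA cells. Gpat4 had a log2 fold change of 0.35 (SE 0.0688, adjusted p = 0.000249). mino, the mitochondrial enzyme of the same acylation step, had 107, 101 and 115 CPM in active CT1 cells, against 94.2, 82.8 and 77.4 CPM in active CT2 cells. For mino the log2 fold change was 0.34 (SE 0.0761). Lpin, Gpat4 and mino were called higher than vehicle in both groups. Agpat3, of the next acylation, had 122, 114 and 125 CPM in active CT1 cells, against 99.9, 95.2 and 95.6 CPM in active CT2 cells. Agpat3 had a log2 fold change of 0.31 (SE 0.0638, adjusted p = 0.000579). mdy, the fly homolog of DGAT1, which joins the last fatty acid to diacylglycerol, had 46, 50.2 and 44.4 CPM in active CT1 cells, 52.3, 51.1 and 43.8 CPM in active CT2 cells and 48 and 43.7 CPM in vehicle OA cells. All 3 groups overlapped for mdy, and the difference between the compounds was -0.06 on the log2 scale (95% interval -0.23 to 0.12, adjusted p = 0.82). Agpat2 (log2 fold change 0.09, 95% interval -0.10 to 0.27) and Agpat1 (log2 fold change -0.30, 95% interval -0.79 to 0.19) were not called.

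Phospholipid synthesis had 7 of 13 tested members called higher and 0 lower, beside 5.48% and 4.41% of all genes, with a median of 0.34. Pect, the rate-setting enzyme of phosphatidylethanolamine synthesis, had 160.2, 134 and 154 CPM in active CT1 cells, 64.6, 67.8 and 51.4 CPM in active CT2 cells and 46.8 and 49.1 CPM in vehicle OA cells. Pect had a log2 fold change of 1.28 (SE 0.0816, adjusted p = 2.03e-15). Pcyt1, the corresponding enzyme of phosphatidylcholine synthesis, had 120.0, 109 and 129 CPM in active CT1 cells, 62.9, 50.7 and 57.4 CPM in active CT2 cells and 45.2 and 54.1 CPM in vehicle OA cells. Pcyt1 had a log2 fold change of 1.06 (SE 0.0778, adjusted p = 2.26e-13). In active CT2 cells neither was called against vehicle. For Pect every active CT2 library lay above both vehicle libraries, so the missing call does not show an equal level. Inos, which makes inositol phosphate, had 243, 228 and 251 CPM in active CT1 cells, 142, 133 and 109.9 CPM in active CT2 cells and 95.6 and 105 CPM in vehicle OA cells. Inos had a log2 fold change of 0.91 (SE 0.0677, adjusted p = 2.95e-13). Cds, which makes CDP-diacylglycerol for phosphatidylinositol and cardiolipin, had 135, 132 and 141 CPM in active CT1 cells, 96.2, 92.1 and 80.0 CPM in active CT2 cells and 64.5 and 67.5 CPM in vehicle OA cells. Cds had a log2 fold change of 0.61 (SE 0.0732, adjusted p = 5.40e-08). These 2 were called higher than vehicle in both groups. Of the steps around Pect, the ethanolamine kinase eas (log2 fold change -0.07, 95% interval -0.25 to 0.10), the transferase CG33116 (log2 fold change 0.03, 95% interval -0.11 to 0.18) and the phosphatidylserine decarboxylase Pisd (log2 fold change 0.00017, 95% interval -0.17 to 0.17) were not called.

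The organic cation transporter family, whose members carry small organic cations including carnitine in some cases, changed in both directions, with 5 of 15 tested members called higher, 2 lower and a median of -0.12, which was 0.01 with limma. Over all genes, 5.48% were called higher and 4.41% lower. SLC22A had 16.6, 14.7 and 13.4 CPM in active CT1 cells, 4.11, 4.33 and 3.48 CPM in active CT2 cells and 1.1 and 0.801 CPM in vehicle OA cells. SLC22A had a log2 fold change of 1.92 (SE 0.196, adjusted p = 1.16e-09). Orct2 had 815, 777 and 898 CPM in active CT1 cells, 434, 384 and 392 CPM in active CT2 cells and 261 and 248 CPM in vehicle OA cells. Orct2 had a log2 fold change of 1.04 (SE 0.0655, adjusted p = 1.74e-15). CG8654 had 82.6, 79.4 and 76.6 CPM in active CT1 cells, against 64.6, 54.4 and 52.8 CPM in active CT2 cells. CG8654 had a log2 fold change of 0.48 (SE 0.0789, adjusted p = 2.23e-05). All 3 were called higher than vehicle in both groups. CG7458 went the other way with 22.1, 25.5 and 21.1 CPM in active CT1 cells, 41.1, 37.3 and 33.2 CPM in active CT2 cells and 27.6 and 27.6 CPM in vehicle OA cells. CG7458 had a log2 fold change of -0.68 (SE 0.103, adjusted p = 4.33e-06). Its level in active CT2 cells was the highest of the 3 groups, but neither compound was called against vehicle (adjusted p = 0.23 for active CT1 and 0.0566 for active CT2). CG4630 (log2 fold change -0.12, 95% interval -0.45 to 0.21), CarT (log2 fold change -0.39, 95% interval -0.76 to -0.01) and CG14857 (log2 fold change -0.16, 95% interval -0.54 to 0.23) were not called. Limma called 2 of the 15.

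In central carbon metabolism the calls were all higher in active CT1 cells, beside 5.48% of all genes. Glycolysis had 3 of 13 tested members called higher, 0 lower and a median of 0.09, and pyruvate dehydrogenase with the citric acid cycle 4 of 19 higher, 0 lower and a median of 0.06. Besides Ldh, given above, Hex-A, the hexokinase, had 236, 223 and 226 CPM in active CT1 cells, 179, 178 and 168 CPM in active CT2 cells and 175 and 174 CPM in vehicle OA cells. Hex-A had a log2 fold change of 0.39 (SE 0.0646, adjusted p = 2.86e-05). The aldolase Ald1 had 436, 438 and 433 CPM in active CT1 cells, against 393, 332 and 334 CPM in active CT2 cells. Ald1 had a log2 fold change of 0.30 (SE 0.0622, adjusted p = 0.000532). Pyruvate kinase PyK (95% interval -0.15 to 0.07), Gapdh2 (95% interval -0.18 to 0.07) and Pgi (95% interval -0.23 to 0.03) had intervals that include 0. In the cycle, an alpha and a beta subunit of succinyl-CoA synthetase were called higher in active CT1 cells. ScsbetaA had 382, 364 and 367 CPM in active CT1 cells, 303, 293 and 284 CPM in active CT2 cells and 224 and 231 CPM in vehicle OA cells (log2 fold change 0.34, SE 0.056, adjusted p = 2.23e-05). Scsalpha1 had 286, 275 and 261 CPM in active CT1 cells, against 237, 228 and 218 CPM in active CT2 cells. Scsalpha1 had a log2 fold change of 0.27 (SE 0.0587, adjusted p = 0.00107). Idh, the NADP-dependent isocitrate dehydrogenase, had 257, 244 and 274 CPM in active CT1 cells, against 218, 206 and 211 CPM in active CT2 cells. Idh had a log2 fold change of 0.28 (SE 0.0571, adjusted p = 0.000405). Mdh1, the malate dehydrogenase of the cytosol (log2 fold change 0.26, SE 0.0743, adjusted p = 0.0167), lost its call without active CT1 replicate 2 (adjusted p = 0.0621), without active CT2 replicate 2 (adjusted p = 0.0509) and without active CT2 replicate 3 (adjusted p = 0.14). The citrate synthase kdn (95% interval -0.12 to 0.11), Pdha (95% interval -0.18 to 0.05) and mAcon1 (95% interval -0.13 to 0.11) were not called, and limma called 0 of the 19 and 1 of the 13 genes of glycolysis.

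The detoxification families were called in both directions. Glutathione S-transferases had 6 of 25 tested members called higher and 2 lower (median 0.15), beside 5.48% higher and 4.41% lower over all genes, and the theta class had the smallest adjusted p among the rises. GstT3 had 57.6, 50.3 and 52.1 CPM in active CT1 cells, 40.7, 31.9 and 33.2 CPM in active CT2 cells and 18.2 and 15 CPM in vehicle OA cells (log2 fold change 0.60, SE 0.0922, adjusted p = 6.84e-06). GstT2 had 72.6, 68.7 and 62.8 CPM in active CT1 cells, 50.9, 45.9 and 40.9 CPM in active CT2 cells and 30.6 and 24.8 CPM in vehicle OA cells. GstT2 had a log2 fold change of 0.58 (SE 0.0824, adjusted p = 1.69e-06). GstT1 had 109.8, 109 and 102 CPM in active CT1 cells, against 82.1, 86.1 and 76.7 CPM in active CT2 cells. GstT1 had a log2 fold change of 0.40 (SE 0.0617, adjusted p = 8.13e-06). GstT2 and GstT3 were called higher than vehicle in both groups. GstD1 (log2 fold change 0.15, 95% interval 0.03 to 0.27, adjusted p = 0.12), GstE12 (95% interval -0.27 to 0.03) and GstO2 (95% interval -0.28 to 0.06) were not called. Limma called 5 of the 25. The cytochrome P450s had 5 of 35 tested members called higher and 5 lower, with a median of -0.01, also beside 5.48% and 4.41%. Cyp6a20 had 49.2, 45.2 and 35.6 CPM in active CT1 cells, against 30.4, 27.6 and 21.5 CPM in active CT2 cells (log2 fold change 0.74, SE 0.11, adjusted p = 3.66e-06). Cyp6w1 had 190.2, 176 and 164 CPM in active CT1 cells, against 146, 114 and 129.8 CPM in active CT2 cells. Cyp6w1 had a log2 fold change of 0.45 (SE 0.0743, adjusted p = 2.31e-05). Cyp310a1 was lower, with 55.1, 54 and 54.2 CPM in active CT1 cells, 73.1, 70.5 and 70.8 CPM in active CT2 cells and 76.1 and 75.5 CPM in vehicle OA cells. Cyp310a1 had a log2 fold change of -0.39 (SE 0.0695, adjusted p = 6.68e-05). Cyp9c1 (95% interval -0.16 to 0.10), Cyp6v1 (95% interval -0.07 to 0.28) and Cyp9f2 (95% interval -0.10 to 0.25) were not called. The P450 count dropped to 6 without active CT1 replicate 1, active CT1 replicate 2, active CT2 replicate 1 or active CT2 replicate 2, and was 4 with DESeq2 and 3 with limma. Of 12 UDP-glycosyltransferases tested, Ugt35C1 alone was called, a share near the 9.89% of all genes, with 19.5, 16.4 and 18 CPM in active CT1 cells, against 12.9, 8.86 and 9.72 CPM in active CT2 cells. Ugt35C1 had a log2 fold change of 0.77 (SE 0.145, adjusted p = 0.000166), and leaving out active CT1 replicate 2 or 3 gave 2 or 3 calls. Ugt317A1 (95% interval -0.13 to 0.09) and Ugt37E1 (95% interval -0.19 to 0.12) lay near 0, and Ugt37D1 (log2 fold change -0.17, 95% interval -0.29 to -0.05, adjusted p = 0.0548) was not called.

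Among 11 tested genes of insulin, FOXO and activin signalling, 2 were called higher and 1 lower (median 0.04), beside 5.48% and 4.41% of all genes. ImpL2, a secreted protein that binds insulin-like peptides, had 519, 450.4 and 544 CPM in active CT1 cells, 289, 240.4 and 231 CPM in active CT2 cells and 193 and 178 CPM in vehicle OA cells. ImpL2 had a log2 fold change of 0.99 (SE 0.0752, adjusted p = 4.32e-13), and was called higher than vehicle in both groups. Thor, given above, was called in active CT1 cells only (log2 fold changes against vehicle 2.45 in active CT1 and -0.05 in active CT2 cells, with the difference itself called). foxo had 80.0, 80.2 and 82.4 CPM in active CT1 cells, 97.2, 99.1 and 97.2 CPM in active CT2 cells and 80.5 and 80.1 CPM in vehicle OA cells (log2 fold change -0.28, SE 0.0782, adjusted p = 0.0156), a call lost without active CT1 replicate 1 (adjusted p = 0.0568), without active CT1 replicate 2 (adjusted p = 0.0592) and without active CT2 replicate 2 (adjusted p = 0.079). The kinase Akt (95% interval -0.12 to 0.12), Sesn (95% interval -0.08 to 0.16) and Smox (95% interval -0.14 to 0.13) were not called.

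Several chaperones of the endoplasmic reticulum and their regulators were called higher in active CT1 cells. Of 15 tested members 7 were called higher and 0 lower in active CT1 than in active CT2 cells (median 0.17). In active CT1 cells 6 were called higher than vehicle (median 0.15), and in active CT2 cells 0 were called, with 0 at an unadjusted p under 0.05 (median -0.02). Over all genes, 5.48% were called higher between the compounds, and 7.48% and 1.97% higher than vehicle in active CT1 and active CT2 cells. With so low a share in active CT2 cells, 0 calls among 15 genes do not set this list apart. Hsc70-3, the fly BiP, had 1205, 1115 and 1306 CPM in active CT1 cells, 737, 766 and 764 CPM in active CT2 cells and 781 and 780.0 CPM in vehicle OA cells. Hsc70-3 had a log2 fold change of 0.68 (SE 0.0599, adjusted p = 3.11e-11). Xbp1, a transcription factor of the unfolded protein response, had 692, 661 and 683 CPM in active CT1 cells, 486, 444 and 457 CPM in active CT2 cells and 459 and 487 CPM in vehicle OA cells. Xbp1 had a log2 fold change of 0.55 (SE 0.0584, adjusted p = 2.23e-09). The chaperone Gp93 had 457, 437 and 457 CPM in active CT1 cells, against 356, 363 and 361 CPM in active CT2 cells. Gp93 had a log2 fold change of 0.32 (SE 0.0562, adjusted p = 5.05e-05). The co-chaperone P58IPK had 118, 114 and 118 CPM in active CT1 cells, 91.9, 96 and 91.5 CPM in active CT2 cells and 98.9 and 97.8 CPM in vehicle OA cells. P58IPK had a log2 fold change of 0.32 (SE 0.0605, adjusted p = 0.000162). The active CT2 libraries overlapped with vehicle for Xbp1 and Gp93 and lay below it for Hsc70-3 and P58IPK. Pdi (log2 fold change 0.10, 95% interval -0.01 to 0.21, adjusted p = 0.327), ERp60 (95% interval -0.02 to 0.20) and crc, the fly ATF4 (95% interval -0.12 to 0.10), were not called. Limma called 2 of the 15. The median level of the list relative to vehicle was 0.11, 0.09 and 0.09 in the inactive CT2 libraries, above the active CT2 libraries.

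Several groups showed no called member in the direct comparison, beside 9.89% of all genes tested. Of 78 cytoplasmic ribosomal protein genes 0 were called by edgeR, DESeq2 or limma, 2 had an unadjusted p under 0.05, and the median was -0.002. Of 71 mitochondrial ribosomal protein genes 0 were called by these tools, with 4 at an unadjusted p under 0.05 and a median of 0.04. Of 33 proteasome subunits and 37 nuclear-encoded subunits of oxidative phosphorylation 0 were called by these tools, with 2 and 2 at an unadjusted p under 0.05 and medians of 0.01 and 0.04. RpL7A (95% interval -0.11 to 0.11), RpS19a (95% interval -0.13 to 0.11), the proteasome subunits Rpn1 (95% interval -0.09 to 0.14) and Rpn6 (95% interval -0.14 to 0.10), and the ATP synthase subunit blw (95% interval -0.15 to 0.08) are examples. Of 12 heat shock proteins 0 were called by edgeR and limma, 2 by DESeq2 and 1 without active CT1 replicate 3. An unadjusted p under 0.05 was found for 5. At a share of 9.89% over all genes, 0 calls among 12 genes do not set this list apart. Hsp83 (95% interval -0.02 to 0.19) and Hsc70-4 (95% interval -0.0097 to 0.21) were among the uncalled. The 22 aminoacyl-tRNA synthetases had 3 higher and 1 lower calls, beside 5.48% and 4.41% over all genes, while DESeq2 called 1 and limma 0. The list held 1 call without active CT1 replicate 1 or active CT2 replicate 2 and 2 calls without active CT1 replicate 2.

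To set each compound against its own inactive derivative, the difference of the 2 differences was tested, in which no control library is shared. Active CT1 cells differed from inactive CT1 cells by 633 genes called higher (8.42%) and 324 lower (4.31%), and active CT2 cells from inactive CT2 cells by 153 higher (2.03%) and 34 lower (0.452%). The difference between these effects was called for 578 genes (7.68%), 334 higher (4.44%) and 244 lower (3.24%). Of these, 449 were also called in the direct comparison with the same sign, 268 higher and 181 lower, and 0 with the opposite sign, the active libraries being shared by both tests. In the 9 lipid lists, 51 of 93 members were called higher and 0 lower, with a median of 0.47. Of 12 heat shock proteins 3 were called higher and 0 lower, beside 4.44% and 3.24% of all genes. Of 78 cytoplasmic ribosomal protein genes 2 were called higher and 0 lower.

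The lipid genes stood higher in inactive CT2 than in inactive CT1 libraries, a difference that was not tested. The median level of the 93 genes relative to vehicle was 0.05, 0.04 and 0.02 in the inactive CT1 libraries and 0.25, 0.24 and 0.13 in the inactive CT2 libraries. For the lipid droplet list, inactive CT2 libraries (0.37, 0.51 and 0.19) overlapped with active CT2 libraries (0.73, 0.36 and 0.50). They also overlapped for peroxins, acyl-CoA synthetases, fatty acid synthesis and phospholipid synthesis. They did not for both beta-oxidation lists, the carnitine list and triacylglycerol synthesis. Lsd-2 had 716, 636 and 629 CPM in inactive CT1 cells and 814, 895 and 842 CPM in inactive CT2 cells. whd had 276, 256 and 247 CPM in inactive CT1 cells and 385, 427 and 325 CPM in inactive CT2 cells. The difference of differences for whd was 0.78 (SE 0.106, adjusted p = 1.02e-06) beside the direct value of 0.25. For SREBP and Pect the libraries of the inactive derivatives overlapped. SREBP had a difference of differences of 0.57 (adjusted p = 0.000281) beside a direct value of 0.62, and Pect one of 1.25 (adjusted p = 6.30e-09) beside 1.28. For mdy it was -0.12 (adjusted p = 0.692).

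**Figure D4:**
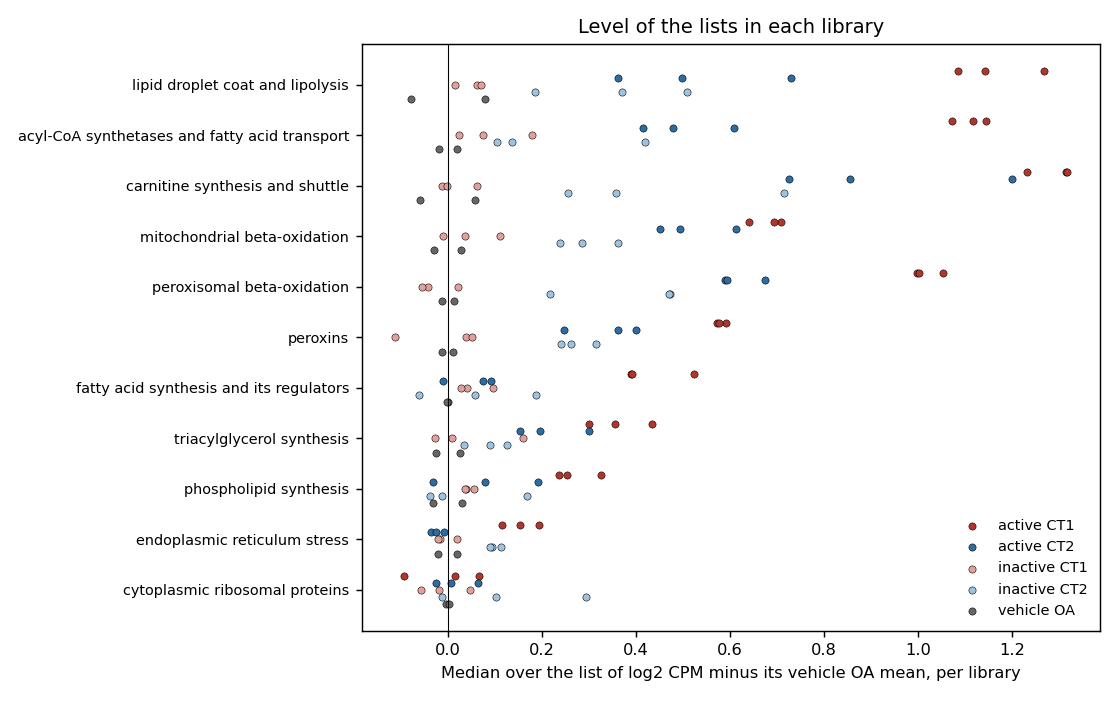
Median over the members of each of 11 lists (y axis) of the log2 CPM minus its mean in vehicle OA cells (x axis), with one point per library of active CT1, active CT2, inactive CT1, inactive CT2 and vehicle OA cells. For both beta-oxidation lists active CT2 lies between inactive CT2 and active CT1, whereas for fatty acid synthesis and the endoplasmic reticulum list active CT2 lies near 0.

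The length of transcripts moved with the fold changes. The median length was 2100 nt for genes called higher in active CT1 than in active CT2 cells, 3740 nt for genes called lower and 2045 nt for all genes tested with a length. Over sixths of the genes by length, the median log2 fold change between the compounds was 0.03 in the shortest and -0.05 in the longest, and the difference of differences 0.10 and -0.12. Active CT2 against inactive CT2 ran from -0.11 to 0.10, whereas active CT1 against inactive CT1 had -0.02 and -0.03 at the ends. With offsets for length in each library, an alternative chosen after seeing the data, the direct comparison called 817 genes, 504 higher and 313 lower, of which 692 were among the 744, and the difference of differences called 534. The cytoplasmic ribosomal protein genes had median levels relative to vehicle of 0.29, -0.01 and 0.10 in inactive CT2 replicates 1, 2 and 3, and without inactive CT2 replicate 1 the difference of differences called 479 genes. What part length has in single differences was not tested.

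**Figure D5:**
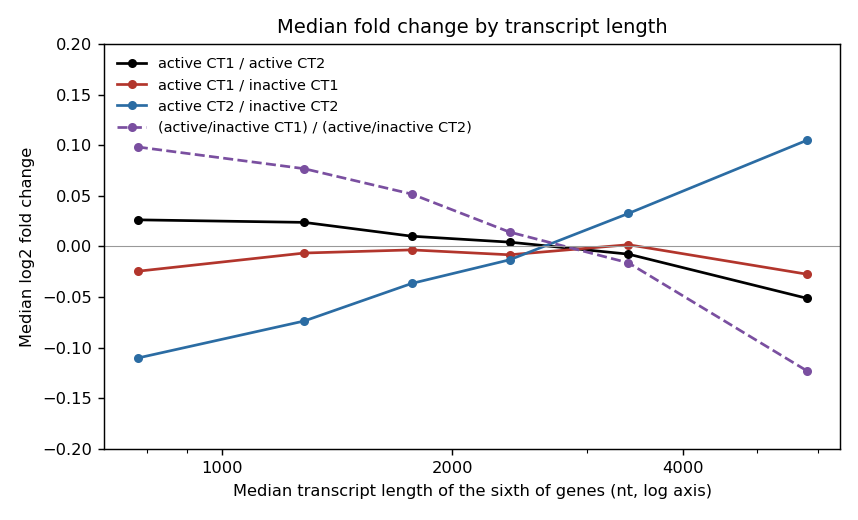
Median log2 fold change (y axis) over sixths of the genes tested by transcript length (x axis, nt, log axis) for 4 contrasts, with one point per sixth of the genes. Active CT1 over active CT2 runs from 0.03 to -0.05, active CT2 over inactive CT2 from -0.11 to 0.10, and active CT1 over inactive CT1 has -0.02 and -0.03 at the ends.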

How the data were processed

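Poly(A) RNA of S3 cells was sequenced from stranded libraries. Per the labels and the study's methods, the authors aligned reads to the BDGP R5 genome with FlyBase 5.57 models using TopHat2 2.0.10, keeping 1 place per read, and deposited raw counts per gene from HTSeq 0.5.4p1 and FPKM values from Cufflinks 2.1.1 (processing notes also list CASAVA 1.8.2 and SAMtools 0.1.19). The counts carried no normalization by the authors. The deposited FPKM values were scaled by transcript length and by mapped fragments. Columns were assigned to libraries by their titles.

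Counts were tested with edgeR 4.0.16 in R 4.3.3 (TMM factors, low-count filter by group, quasi-likelihood F-test), with Benjamini-Hochberg adjustment over 7522 genes and a threshold of 0.05. The fit held 22 of the 24 libraries with DMSO, those whose FPKM values equal the columns of a gene table of the study (over 1999 genes at least 99.8% of values equal within a relative tolerance of 0.0001, and at most 0.206% in any other library). CPM values use the TMM library sizes. SEs and 95% intervals of log2 fold changes come from the F-statistics. The difference of differences is (active minus inactive CT1) minus (active minus inactive CT2). Medians of lists use all tested members. Library totals are given in the report, and the median SE over all genes was 0.11 on the log2 scale.

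The comparison, the gene lists and the rules below were chosen with earlier results of these data known. The genes named were the 10 largest rises and 10 largest falls among called genes whose average log2 CPM was 2 or more and whose libraries did not overlap, up to 4 called members with the smallest adjusted p and up to 3 uncalled members with the narrowest intervals of each list, and a few fixed genes of lipid storage, among them mdy. Of 636 list entries, 628 were matched, and 16896 of 17142 gene IDs had a symbol. Transcript lengths were found for 97.6% of the genes tested. On simulated counts for the direct comparison over 7522 genes, 200 of them changed, the test recovered 62% of genes changed by 0.5 and 97% of those changed by 1 on the log2 scale, and 5.36% of its calls were false. These counts were drawn with the spread that the same fit had estimated, and all other genes were equal in every group. The shares therefore hold under the model's own assumptions and do not give the share of false calls in the real data.

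Alternatives were DESeq2 1.42.0, other size factors, no low-count filter, other sets of libraries, the replicate number as a block, leaving out the 18S rRNA gene, limma 3.58.1 on log2(FPKM + 1) and log2(FPKM + 0.1), leaving out each library, and, added after seeing the data, offsets for length and all alternatives for the comparisons with vehicle OA. Promoter sequences and coordinates were not used here, and some genes chosen by these rules are not reported here. The groups without DMSO were not compared. Chemotype 3 and the vehicle cells without OA entered the fit of the spread but were not compared either.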

Additional observations from a re-analysis of the deposited data

Results flagged for a closer look

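The effect of each active derivative over its own inactive derivative differed between the chemotypes for 578 of the 7522 genes, by a test of the difference itself (edgeR's quasi-likelihood test, adjusted p under 0.05), and the values of 22 of them, fixed genes of lipid storage and genes with the largest changes between the compounds, are given here. The values below are differences of log2 fold changes, the CT1 effect minus the CT2 effect.

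In genes of lipid storage and oxidation the difference was 2.12 for Lsd-1 (adjusted p = 9.14e-13), 1.01 for Lsd-2 (adjusted p = 1.13e-11), 0.57 for bmm (adjusted p = 0.0266), 0.78 for whd (adjusted p = 1.02e-06) and 1.5 for SLC22A (adjusted p = 0.0204). In fatty acid and phospholipid synthesis it was 0.76 for CG3523 (adjusted p = 0.000596), 0.57 for SREBP (adjusted p = 0.000281) and 1.25 for Pect (adjusted p = 6.30e-09). For these 8 genes all 3 active CT1 libraries lay above all 3 inactive CT1 libraries.

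Of the genes with the largest rises outside these lists, the difference was 2.59 for Thor (adjusted p = 2.01e-08), 2.25 for Dgp-1 (adjusted p = 3.82e-14), 2.29 for Cyp6a8 (adjusted p = 2.35e-12), 2.04 for lncRNA:CR44138 (adjusted p = 5.53e-07), 1.91 for CG10383 (adjusted p = 0.000136) and 1.51 for Ldh (adjusted p = 2.44e-06).

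Among the largest falls it was -1.35 for Drat (adjusted p = 1.16e-12), -1.81 for mwh (adjusted p = 0.00224), -1.51 for Dh31-R (adjusted p = 0.00735) and -1.90 for CG11241 (adjusted p = 0.00268). It was -2.05 for Cc2d2a (adjusted p = 5.50e-06), -2.08 for CG12071 (adjusted p = 3.56e-05), -2.04 for CG8908 (adjusted p = 3.80e-07) and -1.87 for Tpc2 (adjusted p = 4.45e-10). In these last 4 genes the libraries of inactive CT2 lay below those of active CT2, and active CT2 was not called against vehicle OA. For GstE9, Dgk and asRNA:CR45171, the remaining genes among the largest changes, the difference of differences was not called (adjusted p = 0.143 for GstE9, 0.0812 for Dgk and 0.154 for asRNA:CR45171).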

How the results depend on the processing

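No called gene of the 744 changed sign under any alternative, and of the 151 genes chosen for naming, 81 were called. Beside 744 genes called between active CT1 and active CT2, DESeq2 called 469 and limma 152, 146 with the smaller pseudocount and 122 with no filter. Beside 578 genes for the difference of differences the counts were 379, 106, 106 and 88, and beside 912 for active CT1 against vehicle OA they were 596, 435, 430 and 381. Beside 153 for active CT2 against vehicle OA, limma called 67, 67 and 60, and DESeq2 125. In the 9 lipid lists, where 55 of 93 members were called, limma called 28, 25 and 22, and their median of 0.31 was 0.39, 0.40 and 0.39 there. The cause of these differences was not tested. Leaving out 1 library at a time gave 526 to 665 calls between the compounds, 444 to 651 for the difference of differences, 489 to 820 for active CT1 against vehicle OA, 74 to 157 for active CT2 against vehicle OA, 42 to 55 lipid members and a lipid median of 0.29 to 0.36. In the comparisons with vehicle OA the lowest counts came without vehicle OA replicate 2, which leaves a lone library that is assumed to vary like the other groups. Size factors, filter, libraries in the fit, the 18S rRNA gene and length offsets gave 740 to 817 calls between the compounds.

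Of the 81 called genes chosen for naming, 7 lost their call with DESeq2, 33 to 40 with limma, 1 with no filter and 2 to 9 without 1 library. The replicate numbers did not pair the libraries, since the deviations of libraries with the same number correlated at 0.05, -0.02 and 0.02, and with the number as a block 765 genes were called between the compounds, 603 for the difference of differences, 902 and 163 against vehicle OA, and 55 lipid members with a median of 0.31. The SE on the log2 scale was wider for mwh, a gene of low level (SE 0.301), than for Lsd-2, a gene of high level (SE 0.0587). What part depth has in this was not tested.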
